A study of Homo sapiens with 7 samples.

Results

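The study measured candidate regulatory sequences of the human genome with a lentiviral massively parallel reporter assay in C4-2B, an established prostate cancer cell line of the LNCaP lineage. The constructs described here are the wild-type constructs of long regions, that is, those whose region spans more than 1200 bp in the construct's name. They number 251 of 358 wild-type constructs and lie in 56 of 91 regions, and 107 constructs in 35 regions were at or under that length. All libraries came from C4-2B cells with no further treatment or genotype named in the labels: 3 of genomic DNA (gDNA) and 3 of RNA, both taken 48 hours after transduction, with 1 further library that linked barcodes to sequences. The comparison was wild-type against scrambled sequence, within the same cells.

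In this kind of assay a candidate sequence is placed beside a minimal promoter and drives a barcoded transcript after the virus has integrated. The RNA carrying its barcodes is set against the DNA carrying them, so that a sequence with enhancer activity gives more RNA per integrated copy. Enhancers are built from short clusters of transcription factor binding sites, and a long accessible region can hold several such clusters with inactive or repressive sequence between them. How activity changes along a region, and over what distance nearby constructs act alike, can therefore be read only when several sites of the region are tested.

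Each construct carries in its name a region and 1 tested site within it. The estimate is a log odds ratio (natural log), and its sign, read from the table's name, is positive where wild-type sequence gave more RNA over gDNA than scrambled sequence. The ± gives its standard error, computed as the estimate over z, and folds are folds of odds, the natural exponential of a size. A call required an adjusted p under 0.05 in the deposited table. The place of a site is its distance from the lower-coordinate end of the region, in percent of the region's length, and constructs are numbered along the region from that end. Each region (hg38) is named for the protein-coding gene it overlaps or lies closest to, which does not state that it controls that gene. The tables combine the replicates and hold no reads or barcodes, so the depth is unknown and the p-values carry only the error of the model behind the tables. The sources used here do not say how far each construct extends around its site, nor which scrambled sequence it was set against.

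The sequences of the constructs were not used here, so letters are shown only for the RefSeq promoters (GRCh38.p14) that a long region holds, since these are the stretches where the tested region meets a gene's start. Windows were matched for 50 of the long regions, and 2 overlapped one. They are the 250 bases before the start of SULT1C4, the gene of a cytosolic sulfotransferase (chr2:108377704-108377953, plus strand), and of HTR4, the gene of a serotonin receptor (chr5:148654528-148654777, minus strand). Capitals mark the matches to 6 short motifs searched on both strands.
SULT1C4: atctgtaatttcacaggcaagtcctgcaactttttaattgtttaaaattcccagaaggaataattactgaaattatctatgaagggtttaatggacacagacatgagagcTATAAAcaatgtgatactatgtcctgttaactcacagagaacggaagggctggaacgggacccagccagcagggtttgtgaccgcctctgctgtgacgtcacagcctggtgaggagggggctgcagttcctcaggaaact
HTR4: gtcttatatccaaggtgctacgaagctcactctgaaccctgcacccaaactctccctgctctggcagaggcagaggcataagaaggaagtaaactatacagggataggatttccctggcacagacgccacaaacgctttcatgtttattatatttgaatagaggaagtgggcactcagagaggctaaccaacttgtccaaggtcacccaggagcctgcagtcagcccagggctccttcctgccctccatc

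The letters TATAAA, the core of a TATA box, occurred 1 time in the SULT1C4 stretch, from its base 111, and 0 times in that of HTR4. Either strand held them in 10.7% of 35116 RefSeq promoters cut to the same length. The GC box letters GGGCGG (42.6% of those promoters), the androgen receptor half-site AGAACA (12.4%), the forkhead letters TGTTTAC (2.98%), the E-box CACCTG (17.5%) and the AP-1 letters TGACTCA (4.20%) had 0 matches in both. The SULT1C4 stretch was 45.2% G or C and the HTR4 stretch 51.2%, against a median of 58% over those promoters. The single SULT1C4 construct, with a site within the 50 bases after the start, stood at 0.04 ± 0.04 by the authors' deposited table, with no call (adjusted p = 0.406). At HTR4 no tested site lay in the printed stretch, and the nearest lay 1439 bp from the start. Of the 7 HTR4 constructs, 2 were called higher by the authors' deposited table, at 0.96 ± 0.16 and 0.60 ± 0.25, and 2 lower, at -1.02 ± 0.40 and -1.40 ± 0.31.

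Of the 251 constructs of long regions, 91 were called higher than scrambled sequence, 68 lower and 92 neither. The share called was 63.3% (95% exact interval 57.1 to 69.3%), and 62.3% over the whole table. Higher calls made up 36.3% of the constructs against 34.1% over the whole table, and lower calls 27.1% against 28.2%. In regions of 1200 bp or less the share called was 59.8% (49.9 to 69.2%), so the shares of long and short regions lay within each other's intervals, which cover counting error only. No test was made of that difference, because constructs of a region may share sequence. At an unadjusted p under 0.05 the count was 165 of 251, and 231 of 358 over the whole table. Called estimates of long regions had a median size of 0.48, or 1.62-fold, and 54 of 159 were past a 2-fold change of odds. Over the whole table the median was 0.51, or 1.67-fold, with 81 of 223 past 2-fold. In regions of 1200 bp or less it was 0.62, or 1.86-fold, with 27 of 64 past 2-fold. This difference in size was not tested. The median standard error in long regions was 0.11, and 11 of their constructs had one above 0.5, of which 2 were fits without a bound, at DIO3 and MICAL3.

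The long regions ran from 1207 to 4999 bp, with a median of 1998 bp. They held from 1 to 13 constructs each, with a median of 4. The greatest length occurred 4 times. A protein-coding gene held the whole stretch in 33 regions, 20 lay between genes and 3 crossed a gene's end. Both directions of call occurred in 27 of the 56 regions, higher calls alone in 14, lower calls alone in 10 and no call in 5. The 8 regions with 1 construct could not show both directions, so the 27 stand among 48 regions that could. Those 8 made up 5 of the 10 with lower calls alone and 3 of the 5 with no call. Of the 38 regions with at least 3 constructs, 2 had every construct called higher and 0 had every construct called lower. By length, the share called was 60.0% from 1200 to 1500 bp, 55.7% to 2000 bp, 68.2% to 3000 bp, 77.3% to 4000 bp and 60.4% to 5000 bp. The highest of these rests on 44 constructs in 7 regions (62.2 to 88.5%), and the share did not move one way with length.

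At the edge of the length rule, the regions just inside were those in AREL1, a ubiquitin ligase gene, at 1207 bp, and near TNFSF10, which encodes the death ligand TRAIL, at 1210 bp. Their constructs stood at 0.24 ± 0.14, -0.05 ± 0.18 and -0.32 ± 0.37 by the authors' deposited table, and none of these 3 was called. Just outside it, the 1185 bp region in the zinc finger gene ZNF276 had constructs at 0.37 ± 0.10, -0.09 ± 0.07 and -1.96 ± 0.34 by the authors' deposited table, called higher, neither and lower.

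The first question was whether activity depended on where in the region the site lay. Sites spanned places from 0.95% to 98.6%, with a median of 46%. In the outer 25% of the region at each end, 51 of 132 constructs (38.6%, 30.3 to 47.5%) were called higher and 35 (26.5%, 19.2 to 34.9%) lower. In the middle 50%, 40 of 119 (33.6%, 25.2 to 42.8%) were called higher and 33 (27.7%, 19.9 to 36.7%) lower. The ends and the middle therefore gave shares within each other's intervals. Within 250 bp of an end, 21 of 52 constructs (40.4%) were called higher and 11 (21.2%) lower, against 70 (35.2%) and 57 (28.6%) of the 199 farther in.

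In steps of 10% of the region, the share called was lowest at places from 40 to 50%, 10 of 20 constructs (50%, 27.2 to 72.8%), and highest beyond 90%, 11 of 13 (84.6%, 54.6 to 98.1%). Beyond 90% there were 8 higher and 3 lower calls, and from 80 to 90% there were 6 higher and 11 lower calls among 28 constructs. The more frequent direction thus changed between adjoining steps. The size of the estimates was larger near the low-coordinate end: its median was 0.41 in the first 25%, 0.23 from there to 50%, 0.34 from there to 75% and 0.29 beyond. Spearman's rho of size with place was -0.14 and Pearson's r -0.12 over the 56 regions with 249 constructs, leaving out the fits without a bound. These points share regions and may share scrambled controls, and the values are a description. The standard error moved with place in the same sense, at rho = -0.17 and with a median of 0.13 in the first 25% and 0.10 beyond 75%. The size of z, which sets one against the other, had a rho of -0.03 with place. Larger estimates also had larger standard errors, at rho = 0.44 and Pearson's r = 0.77 over the same constructs. The part of precision in the relation of size with place was not tested.

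At the low-coordinate extreme, 3 of the 5 lowest places belonged to DNAH12, which encodes an axonemal dynein heavy chain (chr3:57551278-57555073, inside the gene). These constructs had estimates of 0.64 ± 0.12, -0.99 ± 0.12 and 0.23 ± 0.09 by the authors' deposited table, all with places between 0.95% and 1.5%. They were called higher, lower and higher within 22 bp, and the fourth DNAH12 construct, at 24%, stood at 0.91 ± 0.57 by the authors' deposited table, with no call. The first construct of TMEM132C, a transmembrane protein gene, had a place of 1.0% and an estimate of 2.24 ± 0.36 by the authors' deposited table. The first CDC42EP5 construct, at 1.4% of a region over an end of that CDC42 effector gene, stood at -0.15 ± 0.10 by the authors' deposited table, with no call.

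At the other extreme, the highest place, 98.6%, was that of the fourth construct of KLC4, a kinesin light chain gene (chr6:43067399-43069397, inside the gene), at 0.32 ± 0.09 by the authors' deposited table, called higher. The last constructs of TDRD9, a helicase gene of the piRNA pathway, and of SLC8A2, a sodium-calcium exchanger gene, were also called higher by the authors' deposited table, at 0.69 ± 0.14 and 0.38 ± 0.03. The last 2 constructs of POM121, a nuclear pore gene, stood at -0.11 ± 0.08, not called, and -0.33 ± 0.08, called lower, by the authors' deposited table. Among the 5 sites nearest the middle of their region, IGSF11 was called higher at 0.94 ± 0.33 by the authors' deposited table. Called lower by the authors' deposited table were TCP11L2 at -0.44 ± 0.08, CHMP4B at -0.44 ± 0.17 and SLC8A2 at -0.08 ± 0.03, while DIO3 at -0.19 ± 0.17 was not called. Calls of both directions thus occurred at both ends and in the middle.

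The second question was how alike constructs of 1 region were, by the distance between their sites. The 48 regions with at least 2 constructs gave 688 pairs from 243 constructs. Each pair's difference was tested against the root of the summed squared standard errors (two-sided normal test), with Benjamini-Hochberg adjustment over the 837 pairs of all regions. The test takes the errors of a pair as independent, which could not be checked here. The estimates differed in 403 of the 688 pairs (58.6%), against 58.9% over all regions. With wider errors, as given below, 2 of the 688 were kept. The median size of the difference was 0.44, or 1.56-fold, with quartiles of 0.20 and 0.84, where the median standard error of a difference was 0.15. Pairs of constructs from different long regions had a median difference of 0.54. The estimates had the same sign in 51.0% of pairs within a region and in 50% of pairs between regions. These values were not tested against each other, and regions with many constructs weigh most in the pairs within a region. Pairs share constructs and are not independent of each other, and the shares below are a description.

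Among pairs with both constructs called, the share with calls of the same direction was highest up to 100 bp, and over all pairs the signs showed less of a difference. Of 112 pairs up to 100 bp apart with both constructs called, 70 had the same direction (62.5%, 52.9 to 71.5%). The share was 35 of 72 (48.6%, 36.7 to 60.7%) from over 100 to 300 bp, 27 of 57 (47.4%, 34.0 to 61.0%) from over 300 to 1000 bp and 15 of 38 (39.5%, 24.0 to 56.6%) beyond 1000 bp. Over pairs from different long regions it was 50.7%. Over all pairs, called or not, estimates had the same sign in 54.1% up to 100 bp, 49.7% from over 100 to 300 bp, 50.6% from over 300 to 1000 bp and 48.1% beyond. With each of the regions left out in turn, the share up to 100 bp ran from 57.1%, without the region near EP300, to 65.0%, without the region near CHMP4B. Near EP300 and near MCPH1 all called pairs up to 100 bp apart had the same direction, and these regions were not left out together. The intervals of adjoining distances overlapped, and the differences between distances were not tested.

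Size changed little with distance. The median difference was 0.39 up to 100 bp, 0.48 from over 100 to 300 bp, 0.46 from over 300 to 1000 bp and 0.46 beyond 1000 bp. Estimates differed in 56.4%, 66.9%, 57.3% and 54.1% of the pairs at these distances. Along the regions, 86 of the 195 pairs of neighbouring sites had both constructs called, and 49 of them (57.0%) had the same direction, with a median of 53 bp between neighbours.

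The closest sites show how far constructs of almost the same place can lie apart. In 34 pairs the sites were at most 10 bp from each other. Both constructs were called in 22 of these, in the same direction in 14 and in opposite directions in 8, the latter at CGN, DNAH12, F11R, FAM167B, HNRNPR and P2RY8. The estimates differed in 19 of the 34 and missed the threshold in 15. The median difference of these pairs was 0.42, or 1.52-fold, with a median standard error of 0.17, and the largest was 2.36.

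In 2 pairs the site itself was the same. Near IL3RA, which encodes the alpha chain of the interleukin-3 receptor (chrX:1334602-1336399), the constructs of 1 site stood at 1.14 ± 0.08 and 0.52 ± 0.11 by the authors' deposited table, both called higher. Their difference of 0.62 ± 0.13 passed the test (adjusted p = 1.51e-05, on the authors' errors). Near P2RY8, a G protein-coupled receptor gene of B cells (chrX:1461066-1462569), the constructs of 1 site stood at 0.78 ± 0.12 and -0.77 ± 0.12 by the authors' deposited table, called higher and lower. They differed by 1.55 ± 0.17, or 4.71-fold (adjusted p = 1.01e-17, on the authors' errors). At each of these sites the names differ only in the tested change, and whether the wild-type sequences were the same was not stated in the sources used here.

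Other pairs lay 1 or 2 bp apart. At DNAH12 the first constructs, 1 bp apart, differed by 1.63 ± 0.17, or 5.11-fold, and had opposite calls (adjusted p = 2.05e-20, on the authors' errors). Near HNRNPR, an RNA-binding protein gene, a pair 1 bp apart stood at -0.31 ± 0.08 and 0.21 ± 0.08 by the authors' deposited table, with opposite calls and a difference of 0.52 ± 0.11 (adjusted p = 7.51e-06). At KLC4 a pair 2 bp apart stood at -0.23 ± 0.30, not called, and 0.58 ± 0.11, called higher, by the authors' deposited table (adjusted p of the difference = 0.0208). The other 3 pairs at 1 bp did not pass the test of the difference. They lay near NRARP, a Notch feedback gene, at -0.19 ± 0.07 and -0.20 ± 0.11, near EP300 at 0.20 ± 0.07 and 0.30 ± 0.06, and in ADNP, a chromatin factor gene, at -0.25 ± 0.10 and -0.45 ± 0.07, by the authors' deposited table. Their adjusted p-values were 0.990, 0.314 and 0.163. At 2 bp, pairs at LRCH3, ENG and DNAAF3 also missed the threshold (adjusted p = 0.227, 0.529 and 0.460, on the authors' errors). Of all 13 pairs up to 2 bp apart, in 11 regions, 6 differed and 3 were called in opposite directions.

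Opposite calls of a region with the largest differences had errors from 0.14 to 1.27. In NRG1, the gene of an ERBB3 and ERBB4 ligand, the constructs at 5.9% and 32%, 676 bp apart, differed by 5.12 ± 1.13. In SOD1, the gene of cytosolic superoxide dismutase, constructs 332 bp apart stood at 3.60 ± 1.26 and -0.87 ± 0.21 by the authors' deposited table, a difference of 4.46 ± 1.27 (adjusted p = 0.00115). ZNF577, a zinc finger gene, had opposite calls 53 bp apart that differed by 3.58 ± 0.59, PMP22 163 bp apart by 3.47 ± 0.67, and TDRD9 20.1-fold at 2794 bp (standard error 0.32 on the log scale). TMEM132C constructs, 1723 bp apart, differed by 2.78 ± 0.37, and those in CGN, the gene of the tight junction protein cingulin, 7 bp apart, by 2.36 ± 0.38. Near IL3RA the opposite calls 591 bp apart differed by 2.47 ± 0.14, or 11.8-fold. Distances among these 8 ran from 7 to 2794 bp.

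The region with the most constructs, 734 bp from CHMP4B, which encodes a subunit of the ESCRT-III membrane scission complex (chr20:33806305-33810614), had 4 of 13 called higher, 4 lower and 5 neither. From 66% to 68% of its length, CHMP4B constructs 3 to 6 stood at 0.34 ± 0.09, -1.02 ± 0.09, 0.34 ± 0.08 and -0.10 ± 0.04 by the authors' deposited table, so the direction of call alternated. The low construct differed from the neighbour 22 bp before it by 1.36 ± 0.13 (adjusted p = 1.26e-24) and from the neighbour 32 bp after it by 1.36 ± 0.12 (adjusted p = 9.09e-28, on the authors' errors). Earlier in the region, constructs 1 and 2, at 43% and 49%, stood at -0.12 ± 0.08, not called, and -0.44 ± 0.17, called lower, by the authors' deposited table. The last 7 constructs, between 76% and 78%, ran from -0.30 ± 0.07 to 0.27 ± 0.07 by the authors' deposited table.

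The region 2344 bp from SLC6A19, the gene of an intestinal and renal neutral amino acid transporter (chr5:1196596-1199251), had 12 constructs, with 4 called higher, 4 lower and 4 neither. Its last 7 constructs, at places from 72% to 86%, had standard errors of 0.02 to 0.03. They stood at -0.14, -0.17, 0.16, 0.11, 0.26, -0.09 and 0.02 by the authors' deposited table, and the first 6 of these were called. A pair 18 bp apart within them differed by 0.33 ± 0.03 (adjusted p = 1.92e-21, on the authors' errors), which is 1.40-fold. Calls here therefore marked small changes of odds, while the first construct of the region, at 14%, stood at -0.71 ± 0.14 by the authors' deposited table.

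Near HNRNPR (chr1:23346149-23349256, 1865 bp from the gene) 4 of 11 constructs were called higher, 4 lower and 3 neither. All 4 lower calls lay between 19% and 28% of the region, and the higher calls between 28% and 33%. The lowest, -0.80 ± 0.11 by the authors' deposited table, lay 11 bp after a construct at 0.21 ± 0.08 and 29 bp before one at 0.52 ± 0.09. It differed from them by 1.01 ± 0.13 (adjusted p = 5.83e-13) and 1.32 ± 0.14 (adjusted p = 6.58e-19, on the authors' errors).

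The region 2062 bp from EP300, which encodes a histone acetyltransferase and coactivator (chr22:41087514-41090530), had 6 of 9 constructs called higher, 1 lower and 2 neither. The last 6 constructs lay within 70 bp at 79% to 82% of the region. Of these, 5 were called higher by the authors' deposited table, at 0.20 ± 0.07, 0.30 ± 0.06, 0.35 ± 0.10, 0.57 ± 0.07 and 0.38 ± 0.06, and 1 was not, at -0.04 ± 0.06. The lower call, -0.23 ± 0.08 by the authors' deposited table, lay 231 bp before the highest, from which it differed by 0.80 ± 0.11 (adjusted p = 2.8e-12).

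In C2, a complement component gene (chr6:31922725-31925687, inside the gene), lower calls preceded higher ones along the region. The constructs at 35% and 36% were called lower by the authors' deposited table, at -0.18 ± 0.05 and -0.28 ± 0.08. From 38% to 46% 5 of 6 constructs were called higher by the authors' deposited table, at 0.35 ± 0.09, 0.49 ± 0.13, 0.82 ± 0.10, 0.86 ± 0.07 and 0.64 ± 0.23. The exception, -0.19 ± 0.10 by the authors' deposited table and not called, lay between the highest 2 of them, 11 bp after one and 14 bp before the other. It differed from them by 1.01 ± 0.14 (adjusted p = 2.43e-11) and 1.05 ± 0.13 (adjusted p = 1.65e-15, on the authors' errors).

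In NRG1 (chr8:32258967-32261520, inside the gene) the 10 constructs all lay in the first 46% of the region. Of the first 6, at places up to 22%, 4 were called higher by the authors' deposited table, at 1.36 ± 0.33, 0.73 ± 0.22, 0.46 ± 0.14 and 0.71 ± 0.33, and the other 2 stood at 0.21 ± 0.16 and 0.13 ± 0.07. Of the last 4, 1 was called lower by the authors' deposited table, at -3.75 ± 1.08, and those at -0.19 ± 0.19, -0.42 ± 0.20 and 0.13 ± 0.38 by the authors' deposited table were not called. The low construct differed from its neighbours 66 bp before and 96 bp after by 3.56 ± 1.10 and 3.33 ± 1.10 (adjusted p = 0.00277 and 0.00540, on the authors' errors).

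SKAP1, the gene of a T-cell adaptor (chr17:48156513-48159961, inside the gene), had 8 constructs from 21% to 53% of its region. The first 2 were called lower by the authors' deposited table, at -1.12 ± 0.08 and -0.63 ± 0.10. The only higher call, 0.15 ± 0.05 by the authors' deposited table, lay 480 bp from the first construct, a difference of 1.28 ± 0.09 (adjusted p = 5.52e-42). The third lower call, -0.24 ± 0.07 by the authors' deposited table, lay at 37%, and the other 4 constructs, from -0.22 ± 0.14 to -0.13 ± 0.09, were not called.

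Among the 5 longest regions, 4 had the greatest length and 1 measured 4700 bp. The TDRD9 region (chr14:103965608-103970606, inside the gene) was sampled over 4754 bp, from 3.3% to 98% of its length. Its constructs 3 and 8, 4287 bp apart, were both called higher by the authors' deposited table, at 1.15 ± 0.10 and 0.69 ± 0.14. Between them, 4 constructs at 67% to 69% stood at -0.45 ± 0.12, -0.17 ± 0.20, 0.08 ± 0.27 and -1.84 ± 0.31 by the authors' deposited table, of which the first and last were called lower. The last of these differed by 1.92 ± 0.41 from the construct 26 bp before it (adjusted p = 9.91e-06, on the authors' errors). In the CDC42EP5 region (chr19:54473266-54478264) constructs 2 and 3 were called lower by the authors' deposited table, at -0.36 ± 0.09 and -0.24 ± 0.11. The fifth, 2591 bp from the second, was called higher at 0.48 ± 0.09 by the authors' deposited table. FHIT, which encodes a diadenosine hydrolase at a chromosomal fragile site, and CSMD3, a large membrane protein gene, had 1 construct each, at -0.37 ± 0.17, called lower, and -0.38 ± 0.28, not called, by the authors' deposited table. Near NECAB1, a calcium-binding protein gene, 1 of 4 constructs was called higher and 1 lower, with estimates from -0.48 to 0.38 by the authors' deposited table.

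The regions with at least 3 constructs and every one called higher were those near MCPH1, the microcephalin gene, and in LRCH3, a leucine-rich repeat protein gene. Near MCPH1 (chr8:6648807-6650052) the 6 sites lay within 151 bp, at places from 16% to 28%. In order along the region the MCPH1 estimates were 1.33 ± 0.06, 3.04 ± 0.34, 2.16 ± 0.28, 0.53 ± 0.15, 3.43 ± 0.55 and 0.70 ± 0.19 by the authors' deposited table. Size varied there although direction did not: the first and second, 9 bp apart, differed by 1.70 ± 0.34, or 5.48-fold (adjusted p = 3.57e-06), and constructs 4 and 5, 60 bp apart, by 2.90 ± 0.57 (adjusted p = 2.21e-06, on the authors' errors). In LRCH3 (chr3:197792365-197794253, inside the gene) the 3 sites lay within 23 bp. The first 2 LRCH3 constructs stood at 0.36 ± 0.11 and 0.55 ± 0.08 by the authors' deposited table, and the third at 4.68 ± 1.24. The near pair did not pass the test (adjusted p = 0.227), and the third differed from the first by 4.32 ± 1.25 (adjusted p = 0.00133, on the authors' errors).

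Of the prostate lineage and androgen receptor list, 2 regions were long, with 1 higher, 4 lower and 2 uncalled constructs. Over all wild-type constructs, 34.1% were called higher and 28.2% lower. The median estimate of the 7 constructs was -0.29, against 0.05 over all constructs of long regions. The NDRG1 region alone held 5 of the 7 and all 4 lower calls. Neither the counts nor the median therefore describe the list as a whole. In NDRG1, an androgen-responsive gene (chr8:133252343-133253812, inside the gene), the estimates along the region were -0.09 ± 0.06, -0.37 ± 0.04, -0.74 ± 0.08, -0.38 ± 0.05 and -0.19 ± 0.08 by the authors' deposited table. They were lowest at 20% of the region and nearer 0 on both sides, at 16% and 39%. NDRG1 constructs 2 and 3, 5 bp apart, were both called lower and still differed by 0.37 ± 0.09 (adjusted p = 0.000118, on the authors' errors). In FOXA1, which encodes a pioneer factor of prostate epithelium (chr14:37589985-37591363, inside the gene), the construct at 61% was called higher at 0.44 ± 0.08 by the authors' deposited table. The FOXA1 construct at 81%, -0.29 ± 0.34 by the authors' deposited table, was not called.

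Of the junction and adhesion list, F11R and CGN had 11 constructs, with 5 called higher, 3 lower and 3 neither. The shares over the whole table were 34.1% higher and 28.2% lower, and counts this small do not tell the list apart from them. The median of the list was -0.12, against 0.05 over all constructs of long regions. Near F11R, which encodes junctional adhesion molecule A (chr1:161021434-161026093), the first 3 constructs lay within 9 bp at 36% of the region. They stood at 1.01 ± 0.12, -0.20 ± 0.09 and 0.42 ± 0.11 by the authors' deposited table, so the call changed direction at each step. The steps of 6 bp and 3 bp differed by 1.21 ± 0.15 (adjusted p = 1.19e-14) and 0.61 ± 0.14 (adjusted p = 3.79e-05, on the authors' errors). The same alternation occurred near FAM167B, where 3 constructs in steps of 4 bp stood at -0.86 ± 0.11, 0.43 ± 0.13 and -0.54 ± 0.12 by the authors' deposited table, and each step passed the test. In CGN (chr1:151525832-151527830, inside the gene) the first 2 constructs, at 9.1% and 9.5%, stood at 0.72 ± 0.16 and -1.64 ± 0.34 by the authors' deposited table. The splicing and neuroendocrine lists had 0 constructs in long regions.

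What the constructs shared beyond length was examined by position and kind. The share called was 62.6% of 123 constructs inside a gene, 65.2% of 115 intergenic ones and 53.8% of 13 over a gene end. Higher calls made up 32.5% inside genes and 41.7% between genes. By distance to the nearest start among the RefSeq windows, 66.7% of 48 constructs within 2000 bp were called. The share was 58.8% of 97 from there to 10000 bp and 65.8% of 79 farther away. These distances may be too long where the windows lack a start. For the SOD1 constructs, inside that gene, they were 103699 to 104031 bp. Constructs named for a substitution were called in 139 of 216 cases (64.4%) and those named for an insertion or deletion in 20 of 35 (57.1%). Of all constructs in the whole table, 62.3% were called and 34.1% called higher. The 27 constructs on chromosome 8, for which no RefSeq start was matched, were called in 66.7% of cases.

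A mutant construct of the same name was present for 228 of the 251, by the authors' deposited table of mutant against wild-type sequence. Of these, 65 mutants were called higher than wild-type, 68 lower and 95 neither, so that 58.3% were called, against 56.6% over that whole table. Both tables use wild-type reads, so their estimates are not independent and are given side by side only. At C2 the mutants of the 5 constructs called higher stood at -0.88 ± 0.18, -0.61 ± 0.16, -0.60 ± 0.12, -0.97 ± 0.11 and -0.69 ± 0.12 by the authors' deposited table, all called lower than wild-type. Near EP300 the mutants of the 6 constructs called higher stood, in order, at 0.00 ± 0.06, -0.22 ± 0.05, -0.07 ± 0.04, -0.02 ± 0.08, -0.14 ± 0.05 and -0.26 ± 0.07 by the authors' deposited table, and 3 of these were called lower and 3 were not called. Near MCPH1 the mutants in order stood at -0.01 ± 0.12, -0.37 ± 0.15, -1.57 ± 0.11, 0.73 ± 0.12 and, for the sixth, 2.57 ± 0.23 by the authors' deposited table. Of the MCPH1 mutants 2 were called lower, 2 higher and 1 neither.

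The errors behind these calls come from the authors' model alone. The z values of the whole table had a robust SD of 4.12, where 1 would match the model's errors if no construct differed from scrambled sequence. The differences between constructs at most 10 bp apart, divided by their standard errors, had a robust SD of 4.02. Each z was then divided by the 4.12 of the whole table. This kept 3 calls, at the first MCPH1, the first SKAP1 and the seventh IL3RA construct. With both errors of a pair multiplied by it, 2 of the 688 differences were kept, both near IL3RA. They were those of IL3RA construct 1 from construct 3 and from construct 7. The same-site pairs near IL3RA and P2RY8 were not kept, nor was any other pair with sites at most 10 bp apart.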

How the data were processed

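Wild-type and mutant constructs were compared in C4-2B cells in a lentiviral reporter assay with 3 gDNA and 3 RNA libraries. Bowtie2 and hg38 are listed in the submitters' processing notes, with no role. The authors deposited 1 table per comparison: an estimate, taken per the file headers (logit) as a natural log odds ratio, its z value (a score), a p-value and a q-value. Recomputed p and q matched. The direction of the estimates was read from the table names. Region starts were raised by 1 base. RefSeq promoter windows held none for chromosome 8, and whether they held every start of the other chromosomes was not checked.

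Constructs were chosen by region length, and pairs within regions were tested with Python 3.11.15 and scipy 1.17.1, after a check on simulated data. The simulated errors were independent and as large as the standard errors used. That check therefore could not show whether those errors are wide enough for the real data. Percentages carry exact Clopper-Pearson intervals for counting error only. Genes came from 19974 protein-coding genes of GRCh38.p14. Regions with the most constructs, the longest, the closest and most opposed pairs, the extreme and middle places and members of 4 gene lists were named by rule. HTR4, FAM167B, MICAL3 and the first DIO3 construct fell outside the rules and were chosen after their values were seen. SULT1C4, ENG and DNAAF3 also fell outside the rules. The members, lists and rules were chosen with earlier results of these data known. No base change or exact position of a tested site is printed.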

Additional observations from a re-analysis of the deposited data

How the results depend on the processing

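No paired analysis was possible because the tables hold no values per replicate, so replicate numbers could not enter a fit. Over the planned settings, 51 values stayed within their interval or within 1.5 times the count, 7 counts fell further and 2 shares moved. The 159 calls fell to 93 in regions over 2000 bp (fewer constructs), to 87 with Bonferroni adjustment, to 29 of 56 with 1 construct per region (51.8%, against 63.3%; the cause was not tested) and to 3 with z divided by its robust SD. The 403 differing pairs fell to 113 with neighbouring sites only (fewer pairs), to 217 with Bonferroni adjustment and to 2 with errors multiplied by that SD. At an adjusted p under 0.01, 19.3% of the middle 50% was called lower, against 27.7%. With neighbouring sites only, the same-direction share from over 300 to 1000 bp was 66.7% of 9 pairs, against 47.4%. Alternatives added after seeing the data left the calls between 151 and 159 with each region left out. They left the same-direction share up to 100 bp between 57.1% and 65.0%, and at 62.5% (mean over 29 regions) with regions weighted equally. From over 100 to 300 bp the left-out range was 44.8 to 52.3%, from over 300 to 1000 bp 46.3 to 50.9%, and beyond 1000 bp 34.6 to 42.4%. Without depth or replicates, the spread between cultures could not be set against any difference.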
